A study of Mus musculus with 6 samples.

Results

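The elastic fibre genes described here are Eln, Fbn1, Fbn2, Mfap2, Mfap4, Mfap5, Fbln1, Fbln2, Fbln5 and Lox. They were found by gene name, and all 10 are present once among the 56359 rows of a table of gene levels. RNA from C57BL/6 mouse embryos at embryonic day 12 was sequenced in 3 Tmem216-/- and 3 wild type samples. Tmem216 encodes a membrane protein of the transition zone at the base of the primary cilium, a small organelle that relays Hedgehog signals. The labels state neither how the allele was made, nor which part of the embryo was taken, nor whether each sample is a separate embryo. A p-value here thus reflects only how these samples vary, in part perhaps for technical reasons. Levels are TPM, which are scaled for gene length and to the same total in each sample, so the number of reads behind each value is unknown.

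Elastic fibres give arteries, lung and skin their recoil. Cells first lay down microfibrils of fibrillin, tropoelastin is then deposited on this scaffold with the help of fibulins, and lysyl oxidase cross-links it into insoluble elastin. Fibroblasts and smooth muscle cells make most of these proteins, and in the mouse embryo the fibrillin scaffold is present before elastin is abundant. Fibrillins also hold growth factors of the TGF-beta family in the matrix.

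The 10 genes were chosen by function with the Tmem216-/- against wild type fold changes of these samples known, so the genotype values below are a description without a test of the group. For Eln, Fbln5 and Lox the lowest Tmem216-/- value exceeded the highest wild type value. The values of Fbn1, Fbn2, Fbln1, Fbln2, Mfap2, Mfap4 and Mfap5 overlapped between the genotypes. A gene entered the comparison if 3 of the 6 samples held 1 TPM or more, and 9 of the 10 did so. Of these 9, 3 had groups that did not overlap and were higher in Tmem216-/-, and 0 had groups that did not overlap and were lower. Over all 16411 tested genes those shares were 4.75% higher and 4.83% lower, or 9.57% in either direction. None of the 9 was called by limma at an adjusted p under 0.05, where 0.104% of all tested genes were called (0.0975% higher and 0.00609% lower). In limma 3 of the 9 had an unadjusted p under 0.05, all higher, beside 4.46% of all tested genes in either direction and 2.24% higher. That count was 1 without Tmem216-/- replicate 2, 2 without Tmem216-/- replicate 1, Tmem216-/- replicate 3 or wild type replicate 1, 4 without wild type replicate 3, and 1 with the replicate number as a block. Over all genes it was 732, and 1906 without wild type replicate 2, 1287 without wild type replicate 3, and 451 and 453 without Tmem216-/- replicates 2 and 3.

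Several facts of the whole data set touch these values. Tmem216 was 2.25, 0.510 and 1.39 TPM in Tmem216-/- and 31.0, 30.7 and 17.4 TPM in wild type (log2 fold change -3.55, limma adjusted p = 0.0266). An exact permutation test (two-sided) gave p = 0.10, which no 3 against 3 samples can go below. On chromosome 19 Tmem216 overlaps Cpsf7, a gene on the opposite strand with a mean of 77.4 TPM. Without strand information reads of the shared bases cannot be told apart, so the source of the low Tmem216-/- values is unknown. Heart muscle markers summed to 818 to 2157 TPM in Tmem216-/- and to 38.1 to 58.4 TPM in wild type, and 8 of 8 passed limma as higher. Hepatocyte markers summed to 816, 83.2 and 120 TPM in Tmem216-/- replicates 1, 2 and 3 and to 1499, 1977 and 177 TPM in the wild type ones. Afp, the most abundant of them, was 480, 0.470 and 3.07 TPM in Tmem216-/- and 669, 1228 and 11.3 TPM in wild type. Wild type replicate 3 and Tmem216-/- replicates 2 and 3 thus held little liver RNA. Ttr did not follow that split, at 61.7, 61.4 and 93.9 TPM in Tmem216-/- and 169, 73.0 and 140 TPM in wild type. Caudal Hox genes summed to 43.1, 17.2 and 48.9 TPM in Tmem216-/- and to 136, 150 and 58.4 TPM in wild type. Of their log2 fold changes 8 of 8 were below 0, and 2 genes had groups apart and lower (4.83% of all tested genes). Limma called none of the caudal Hox genes (6 had an unadjusted p under 0.05, beside 4.46% of all tested genes). Limb genes summed to 33.8, 28.4 and 40.3 TPM in Tmem216-/- and to 82.0, 61.4 and 52.8 TPM in wild type. They went both ways, with 1 log2 fold change above 0 and 4 below. Pitx1 had groups apart and lower in Tmem216-/- (mean 10.8 against 44.1 TPM). Tbx5 had groups apart and higher (15.3 against 7.16 TPM), and limma called neither. Of 3 tested mesothelium and epicardium markers 2 had groups apart and higher in Tmem216-/- (4.75% of all tested genes). Of 6 epithelium markers 3 had groups apart and lower (4.83% of all tested genes). The tissue sampled and the genotype therefore cannot be told apart in these values. In bulk samples fewer cells of a type and less RNA per cell cannot be told apart. Any pair of samples had a Pearson correlation of 0.934 to 0.975 over genes on the log2(TPM + 1) scale.

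The 10 genes differed widely in level. Mfap2 was the most abundant, with a mean of 231 TPM over the 6 samples, followed by Mfap4 (125), Fbln1 (104), Fbn2 (60.8), Fbln2 (55.4), Fbn1 (21.8), Eln (19.9), Fbln5 (16.1), Lox (12.2) and Mfap5 (0.912 TPM). Mfap2 lay above Mfap4, Mfap4 above Fbln1, Fbln1 above Fbn2, Fbln2 above Fbn1, Fbln5 above Lox and Lox above Mfap5 in 6 of 6 samples. Fbn2 exceeded Fbln2 in 3 of 6 samples, Fbn1 exceeded Eln in 4 and Eln exceeded Fbln5 in 5, so those neighbours were not separated in every sample. Mfap2 alone made up 34.0% ± 1.39 of the summed TPM of the 10 genes in Tmem216-/- and 37.4% ± 0.229 in wild type (SD, n = 3 each). Mfap2, Mfap4, Fbn2, Fbln1 and Fbln2 were thus above Eln in both genotypes at this age.

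**Figure D1:**
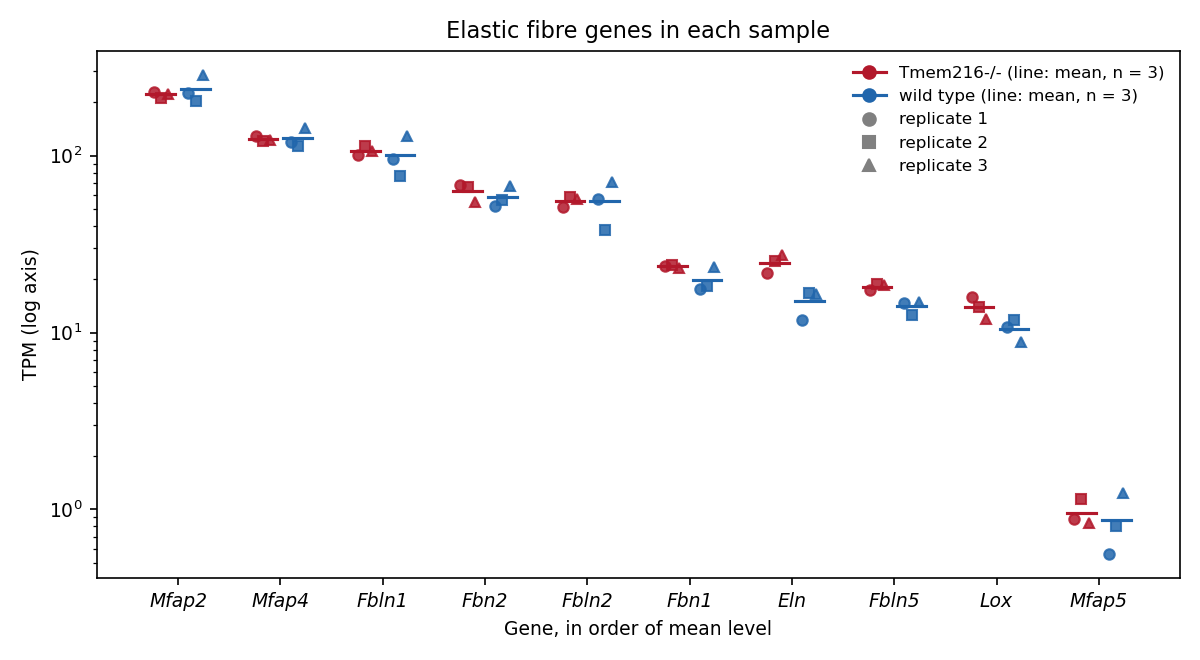
TPM (log axis) of each elastic fibre gene in each Tmem216-/- and wild type sample, with a line at the group mean (n = 3 each). Mfap2, with a mean of 231 TPM, and Mfap5, with 0.912 TPM, mark the ends of the range, and Eln, Fbln5 and Lox are the genes whose groups stand apart.

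Eln encodes tropoelastin, the soluble precursor of the elastic core. It was 21.7, 25.3 and 27.3 TPM in Tmem216-/- replicates 1, 2 and 3, against 11.7, 16.8 and 16.6 TPM in the wild type ones. Every Tmem216-/- value was above every wild type value, and wild type replicate 1 was the lowest of all. The means were 24.8 ± 2.86 TPM in Tmem216-/- and 15.0 ± 2.90 TPM in wild type (SD, n = 3 each), a ratio of 1.65. The log2 fold change on the log2(TPM + 1) scale was 0.70 (SE 0.17) and stayed between 0.54 and 0.79 with each sample left out. Its adjusted p over all genes in limma was 0.592, the lowest of the 9. In mm10 the gene (ENSMUSG00000029675) spans 134702593 to 134747323 of chromosome 5, minus strand.

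Relative to Mfap2 and Mfap4, Eln had a larger share of RNA in Tmem216-/-. The ratio of Eln to Mfap2 TPM within a sample was 0.0941, 0.119 and 0.122 in Tmem216-/- and 0.0518, 0.0818 and 0.0577 in wild type. The ratio of Eln to Mfap4 was 0.20 ± 0.0285 in Tmem216-/- and 0.120 ± 0.0247 in wild type (SD, n = 3 each), and the groups did not overlap in either ratio. The ratio of Eln to Fbn1 was 0.913, 1.05 and 1.17 in Tmem216-/- and 0.657, 0.913 and 0.709 in wild type, so Tmem216-/- replicate 1 was level with wild type replicate 2. The ratios of Eln to Fbln5 and of Eln to Lox overlapped between the genotypes.

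Fbn1 and Fbn2 encode the fibrillins, large proteins with repeats of calcium-binding EGF domains that assemble end to end into the microfibril. FBN1 is the gene mutated in Marfan syndrome in humans, and Fbn2 is known as the fibrillin of early development. Fbn1 was 23.7, 24.1 and 23.3 TPM in Tmem216-/- and 17.7, 18.4 and 23.4 TPM in wild type. Wild type replicate 3 thus reached the Tmem216-/- level, while the other wild type samples lay below all 3 Tmem216-/- samples. The log2 fold change was 0.26 (SE 0.13). It was 0.19, 0.21 and 0.38 without wild type replicates 1, 2 and 3. Fbn2 was 67.9, 66.6 and 54.8 TPM in Tmem216-/- and 51.8, 56.2 and 67.6 TPM in wild type, with overlapping ranges (log2 fold change 0.11, SE 0.14). The Fbn2 value was 0.05, 0.07 and 0.21 without Tmem216-/- replicates 1, 2 and 3, and 0.03 and 0.22 without wild type replicates 1 and 3.

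The embryos held more Fbn2 than Fbn1 in every sample. The ratio of Fbn2 to Fbn1 TPM was 2.86, 2.76 and 2.35 in Tmem216-/- and 2.92, 3.06 and 2.89 in wild type. Each Tmem216-/- ratio was lower than each wild type ratio, by little in replicate 1. In mm10 Fbn1 spans 125300594 to 125507993 of chromosome 2 and Fbn2 58008623 to 58210487 of chromosome 18, both read from the minus strand.

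Mfap2, Mfap4 and Mfap5 encode proteins bound to the outside of microfibrils. Mfap2 and Mfap5 are the paralogues MAGP-1 and MAGP-2, which share a domain that binds fibrillin, and Mfap4 has a fibrinogen-like domain and binds tropoelastin. Mfap2 was 230, 212 and 224 TPM in Tmem216-/- and 225, 205 and 287 TPM in wild type. The Tmem216-/- values lay inside the wild type range, which wild type replicate 3 widened (log2 fold change -0.09, SE 0.13). That value was -0.06 without Tmem216-/- replicate 2, and -0.20 and 0.05 without wild type replicates 2 and 3. Mfap4 was 129, 121 and 123 TPM in Tmem216-/- and 119, 114 and 143 TPM in wild type, with a log2 fold change of -0.01 (SE 0.10). Its sign turned in 4 of 16 alternatives: it was 0.01 under quantile scaling and without Tmem216-/- replicate 2, 0.0038 without haemoglobin, mitochondrial and ribosomal RNA genes, and 0.09 without wild type replicate 3. On chromosome 11 Mfap4 overlaps Mapk7, a kinase gene on the opposite strand with a mean of 68.6 TPM, and without strand information reads of the shared bases cannot be told apart.

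Mfap5 lay near the filter of 1 TPM. It was 0.880, 1.15 and 0.840 TPM in Tmem216-/- and 0.560, 0.800 and 1.24 TPM in wild type, and reached 1 TPM in too few samples to be tested. With all genes above 0 included its log2 fold change was 0.08 (SE 0.18). Its paralogue Mfap2 therefore supplied nearly all MAGP RNA in both genotypes.

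Fibulins are secreted calcium-binding EGF proteins that bridge elastin, microfibrils and the cell surface. Fbln5 is needed in the mouse for elastin to form fibres, and it brings tropoelastin to the microfibril. Fbln5 was 17.3, 18.8 and 18.5 TPM in Tmem216-/- and 14.7, 12.6 and 14.8 TPM in wild type. The groups did not overlap, and the spread within each was small: 18.2 ± 0.782 TPM in Tmem216-/- and 14.1 ± 1.25 TPM in wild type (SD, n = 3 each). The log2 fold change was 0.35 (SE 0.12) and ran from 0.28 to 0.39 with each sample left out.

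Fbln1 and Fbln2, which are found in the matrix around developing vessels, heart valves and cartilage, did not show that pattern. Fbln1 was 101, 113 and 106 TPM in Tmem216-/- and 95.8, 76.8 and 130 TPM in wild type (log2 fold change 0.12, SE 0.18). Fbln2 was 51.1, 58.5 and 57.1 TPM in Tmem216-/- and 56.7, 38.1 and 71.0 TPM in wild type (0.05, SE 0.22). For both genes wild type replicate 2 was the lowest and wild type replicate 3 the highest of the 6 samples, and leaving out wild type replicate 2 turned the log2 fold change to -0.06 for Fbln1 and -0.19 for Fbln2. Leaving out wild type replicate 3 gave 0.31 for Fbln1 and 0.25 for Fbln2, and leaving out Tmem216-/- replicate 2 gave 0.07 for Fbln1 and 0.01 for Fbln2. Fbln2 was also 0.11 and 0.03 without Tmem216-/- replicates 1 and 3, and 0.09 without wild type replicate 1. The ratio of Fbln1 to Fbln2 was steadier than either gene, at 1.93 ± 0.0617 in Tmem216-/- and 1.84 ± 0.165 in wild type (SD, n = 3 each). The ratio of Fbln1 to Fbln5 was 5.85, 6.05 and 5.75 in Tmem216-/- and 6.50, 6.08 and 8.73 in wild type, so the groups were apart by little.

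Promoter windows are shown for Fbln5, whose groups stood apart, and for Fbln1, whose groups overlapped, to set the 250 bases before their RefSeq starts side by side. RefSeq (GRCm38.p6) gives windows for 5 of the 10 genes (Fbn1, Mfap2, Fbln1, Fbln2 and Fbln5). The Fbln5 window is chr12:101819120-101819369 on the minus strand and the Fbln1 window chr15:85205699-85205948 on the plus strand, and neither overlaps an annotated exon. Capitals mark GC boxes, the letters GGGCGG on either strand.
Fbln5: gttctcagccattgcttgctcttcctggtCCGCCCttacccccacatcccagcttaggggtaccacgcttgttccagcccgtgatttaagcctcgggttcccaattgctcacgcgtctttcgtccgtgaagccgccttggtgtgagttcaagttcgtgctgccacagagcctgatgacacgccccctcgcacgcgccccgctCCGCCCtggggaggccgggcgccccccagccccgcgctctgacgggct
Fbln1: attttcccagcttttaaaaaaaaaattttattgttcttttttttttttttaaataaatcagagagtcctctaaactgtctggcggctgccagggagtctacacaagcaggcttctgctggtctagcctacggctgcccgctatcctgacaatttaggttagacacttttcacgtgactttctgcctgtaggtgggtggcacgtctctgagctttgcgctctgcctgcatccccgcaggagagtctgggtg
The Fbln5 window was 65.2% G and C and held GC boxes beginning 221 and 48 bases before the start, while the Fbln1 window was 46.4% G and C and held none. Each gene has a second RefSeq start, and there the order was the other way, with no GC box for Fbln5 and 1 for Fbln1. A GC box was in 5 of the 8 windows of these genes and in 32.7% of all 32851 RefSeq windows. None of the 8 windows held a CArG box (1.47% of all windows), the GLI element GACCACCCA (0.225%), the AP-1 element TGANTCA (6.75%), the SMAD element GTCTAGAC (0.167%) or the TATA box TATAAA (12.4%), each searched on both strands. The TEAD element GGAATG was in 1 window of Mfap2 and in 12.6% of all windows.

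Lox encodes lysyl oxidase, the copper enzyme that oxidises lysines of tropoelastin and collagen so that they cross-link. It was 15.8, 14.0 and 12 TPM in Tmem216-/- and 10.8, 11.7 and 8.86 TPM in wild type. The lowest Tmem216-/- value was just above the highest wild type value. The means were 13.9 ± 1.90 TPM in Tmem216-/- and 10.4 ± 1.46 TPM in wild type (SD, n = 3 each), a log2 fold change of 0.39 (SE 0.16) that ran from 0.28 to 0.48 with each sample left out. In mm10 Lox spans 52516067 to 52529867 of chromosome 18, minus strand.

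**Figure D2:**
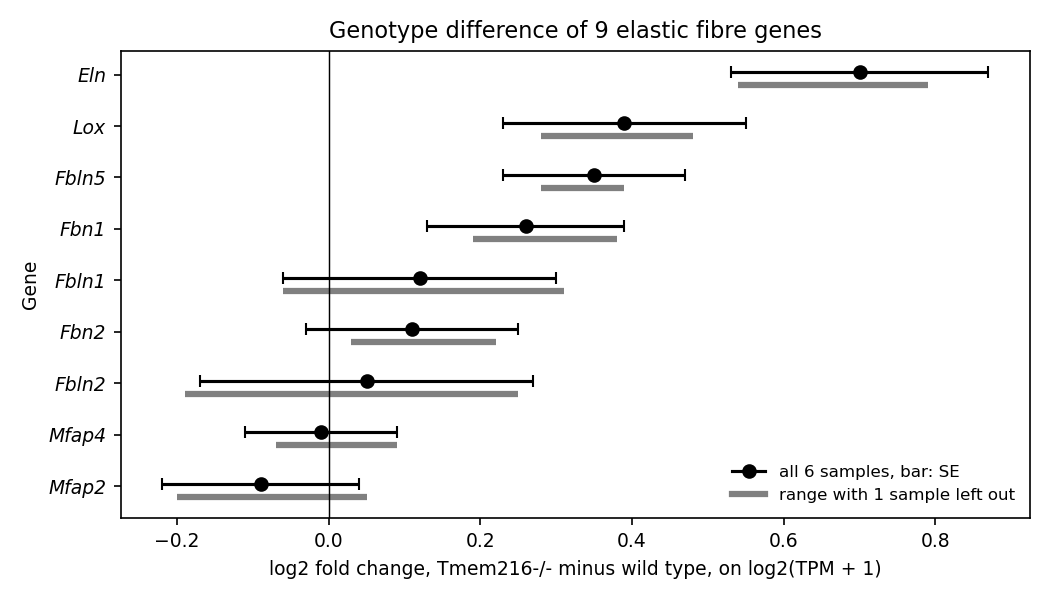
Log2 fold change (Tmem216-/- minus wild type, on log2(TPM + 1)) of the 9 tested elastic fibre genes, with the SE from limma as a black bar and the range over the fits with 1 sample left out in grey. Eln is at 0.70, Lox at 0.39 and Fbln5 at 0.35, while the grey ranges of Fbln1, Fbln2, Mfap2 and Mfap4 cross 0.

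As a group, 7 of the 9 tested genes had a log2 fold change above 0 and 2 below, with a median of 0.12, beside a median of -0.01 and 48.3% above 0 over all tested genes. The median rested in part on wild type replicate 3, without which it was 0.28 with 9 of 9 above 0, on Tmem216-/- replicate 2, without which it was 0.07, and on Tmem216-/- replicate 3, without which it was 0.21. Without wild type replicate 2 it was 0.08, with 5 of the 9 genes above 0. Wild type replicate 3 held the highest wild type value of 8 of the 10 genes and the highest of all 6 samples for 5 of them. The summed TPM of the 10 genes was 659, 655 and 646 in Tmem216-/- and 604, 551 and 763 in wild type, so the Tmem216-/- samples lay within the wild type range. All 10 genes had a larger SD of log2(TPM + 1) in wild type than in Tmem216-/-, and so did 72.9% of all tested genes. The median SD of the 10 genes was 0.09 in Tmem216-/- and 0.23 in wild type, beside 0.12 in Tmem216-/- and 0.24 in wild type over all tested genes.

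Of 7 markers of smooth muscle, a cell type that makes elastic fibres, 5 stood apart between the genotypes beside Eln. Smooth muscle markers summed to 239, 271 and 226 TPM in Tmem216-/- and to 122, 151 and 122 TPM in wild type. Groups were apart and higher in Tmem216-/- for 5 of 7 markers (Acta2, Tagln, Cnn1, Myocd and Lmod1), beside 4.75% of all tested genes. Acta2, smooth muscle actin, was 130 ± 7.42 TPM in Tmem216-/- and 70.3 ± 13.6 TPM in wild type (SD, n = 3 each), with a log2 fold change of 0.89 and a limma adjusted p of 0.151. Tagln, which encodes an actin-binding protein of smooth muscle, was 54.9, 77.9 and 54.7 TPM in Tmem216-/- and 30.4, 28.7 and 23.0 TPM in wild type. Cnn1 had the largest ratio of means of the list (7.24), at 15.1, 26.2 and 19.6 TPM in Tmem216-/- and 3.66, 3.91 and 0.850 TPM in wild type. Acta2 and Tagln are also active in embryonic heart muscle, and whether the other markers are was not examined. Tagln, Cnn1 and Myocd were highest in Tmem216-/- replicate 2, which had the largest heart marker sum (2157 TPM). Lmod1 was highest in Tmem216-/- replicate 1. Acta2 was 134, 133 and 121 TPM in Tmem216-/- replicates 1, 2 and 3, so replicates 1 and 2 were level. Myh11, the smooth muscle myosin, was low, at 1.49, 1.23 and 1.27 TPM in Tmem216-/- and 0.780, 1.57 and 0.340 TPM in wild type, and its groups overlapped, as did those of the cytoskeletal gene Smtn. None of the 7 markers passed limma, with 4 at an unadjusted p under 0.05, beside 4.46% of all tested genes. The ratio of Eln to Acta2 was 0.162, 0.190 and 0.226 in Tmem216-/- and 0.192, 0.195 and 0.258 in wild type, and the groups overlapped. The part of smooth muscle or heart RNA in the Eln, Fbln5 and Lox values was not tested.

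Fibroblast and mesenchyme markers overlapped between the genotypes. The 8 markers summed to 1157, 1033 and 1007 TPM in Tmem216-/- and to 1060, 1018 and 1103 TPM in wild type, with 4 log2 fold changes above 0 and 4 below and no groups apart. The ratio of Eln to Col3a1, a fibrillar collagen gene of mesenchyme, was 0.0550, 0.0694 and 0.0807 in Tmem216-/- and 0.0324, 0.0459 and 0.0468 in wild type. Dividing each sample by the fibroblast sum, a scaling added after the data were seen, left the log2 fold change of Eln at 0.69 (limma adjusted p = 0.833). Under it 2 elastic fibre genes had an unadjusted p under 0.05 in limma. Those sums differed little between the genotypes, so this scaling could hardly move the fold change. Cartilage markers summed to 272, 283 and 257 TPM in Tmem216-/- and 263, 252 and 367 TPM in wild type, with wild type replicate 3 the highest. Wild type replicate 3, the sample with the most Mfap2, Mfap4, Fbln1 and Fbln2, also had the highest sums of neuron markers (1842 TPM) and macrophage markers (54.7 TPM). The single markers were mixed. Of the neuron markers Tubb3 (1227 TPM), Stmn2 and Elavl3 were highest there, Map2 and Dcx were not, and Elavl4 (25.1 TPM) was lowest there. Of the macrophage markers C1qa and C1qb were highest there, while Csf1r and Cx3cr1 were not. Endothelial markers summed to 116, 139 and 119 TPM in Tmem216-/- and 107, 102 and 119 TPM in wild type, with 5 of 5 log2 fold changes above 0. Of these markers 2 had groups apart and higher in Tmem216-/-, beside 4.75% of all tested genes. These were Tek, at 10.3 ± 0.755 TPM in Tmem216-/- and 6.58 ± 0.508 TPM in wild type, and Pecam1, at 30.9 ± 2.67 TPM in Tmem216-/- and 26.0 ± 0.549 TPM in wild type (SD, n = 3 each). The part of the differences in liver, caudal, limb, endothelial and other marker RNA in the elastic fibre values was not tested.

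**Figure D3:**
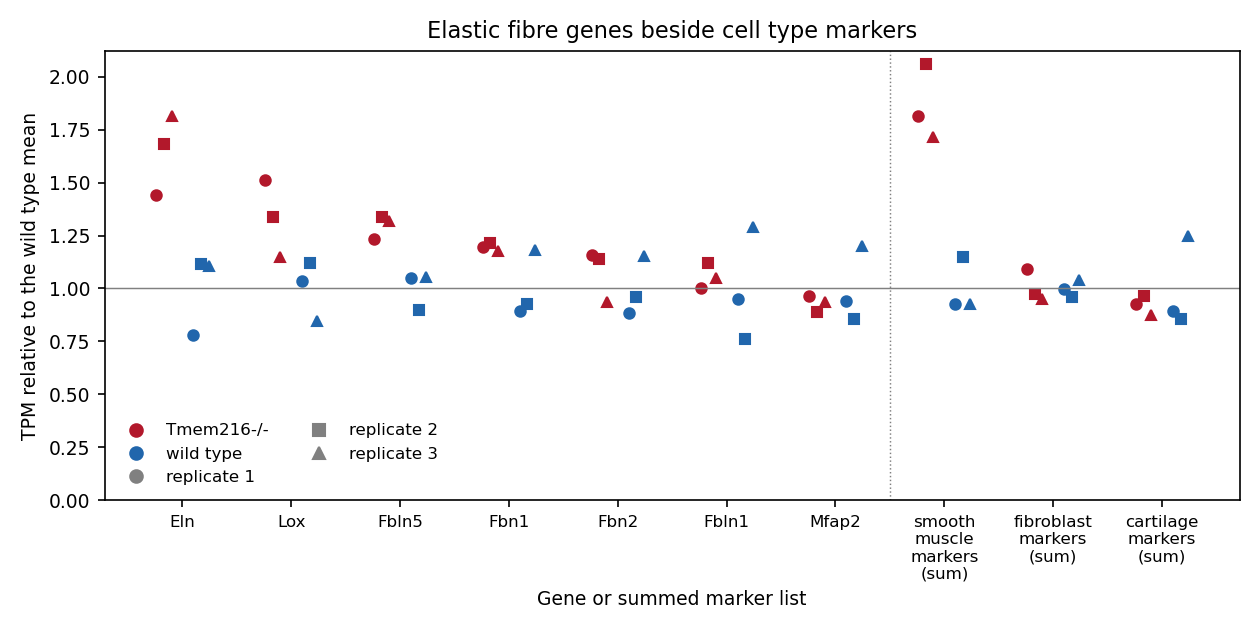
TPM relative to the wild type mean of 7 elastic fibre genes and of 3 summed marker lists, for each Tmem216-/- and wild type sample. Eln, Lox, Fbln5 and the smooth muscle sum (226 to 271 TPM in Tmem216-/-, 122 to 151 TPM in wild type) have groups apart, while Mfap2, the fibroblast sum and the cartilage sum overlap. The smooth muscle sum includes Acta2 and Tagln, which are also active in embryonic heart muscle.

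Of the genes that elastic fibre proteins work with, 55 were tested in 6 lists, and limma called none of them. It called 0.104% of all tested genes, so the absence of calls among 55 genes says little about them. Over all tested genes 9.57% had groups apart in either direction, and 4.46% had an unadjusted p under 0.05 in limma. The counts for each list below stand beside those shares. Among fibulin and fibrillin relatives, 5 of 7 tested genes had a log2 fold change above 0 and 2 below (median 0.12, with 0 at an unadjusted p under 0.05 in limma). None of these 7 had groups apart. Of the relatives too low to be tested, only Ltbp2 had groups apart. It was 1.41, 0.700 and 0.970 TPM in Tmem216-/- and 0.460, 0.340 and 0.430 TPM in wild type. Efemp1, which encodes fibulin-3, was 22.5, 18.4 and 22.5 TPM in Tmem216-/- and 13.8, 20.2 and 16.9 TPM in wild type. Efemp2, which encodes fibulin-4, a partner of lysyl oxidase in elastin assembly, was 64.4, 54.9 and 56.5 TPM in Tmem216-/- and 58.5, 56.7 and 54.9 TPM in wild type. The latent TGF-beta binding protein genes Ltbp4, Ltbp3 and Ltbp1 had log2 fold changes of 0.26, -0.17 and 0.12.

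The lysyl oxidase paralogues and the enzymes that process matrix proteins had 5 of 7 log2 fold changes above 0 and 2 below (median 0.14; 1 at an unadjusted p under 0.05 in limma). Loxl2, a paralogue known for cross-linking collagen IV, was 43.6, 50.3 and 43.5 TPM in Tmem216-/- and 35.6, 32.3 and 42.4 TPM in wild type. Its groups were apart by little (log2 fold change 0.32, SE 0.13). Loxl1, which cross-links elastin, was 18.1, 16.5 and 18.1 TPM in Tmem216-/- and 14.5, 14.1 and 18.6 TPM in wild type, and the groups overlapped. Bmp1, the protease that activates lysyl oxidase, and Pcolce, its enhancer on procollagen, had log2 fold changes of -0.20 and 0.14.

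Among 13 tested microfibril partners 7 were above 0 and 6 below (median 0.09; 0 at an unadjusted p under 0.05 in limma). Fn1, which encodes the fibronectin that fibrillin assembly needs, was 241, 219 and 213 TPM in Tmem216-/- and 195, 193 and 207 TPM in wild type, with groups apart (log2 fold change 0.17, SE 0.08). Emilin2, an elastin interface protein gene, had a log2 fold change of 0.38, and Adamtsl2, a fibrillin-binding protein gene, of -0.32. Of the partners too low to be tested, only Adamtsl4 had groups apart. It was 1.41, 0.510 and 1.13 TPM in Tmem216-/- and 0.230, 0.290 and 0.480 TPM in wild type. Integrin and elastin receptor genes had 6 of 11 values above 0 and 5 below (median 0.03; 0 at an unadjusted p under 0.05 in limma). Itgb8, a subunit of an integrin that activates latent TGF-beta, had the largest value of that list at 0.53.

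Proteases and their inhibitors had 4 of 9 values above 0 and 5 below (median -0.02; 1 at an unadjusted p under 0.05 in limma). Timp1, a metalloprotease inhibitor gene, was 15.1, 14.4 and 12.6 TPM in Tmem216-/- and 8.46, 12 and 10.1 TPM in wild type, and its groups were apart, as were those of Timp3, another such gene (log2 fold change 0.21). Mmp14, a membrane metalloprotease gene, had a log2 fold change of -0.11. TGF-beta genes had 6 of 8 values above 0 and 2 below (median 0.08; 1 at an unadjusted p under 0.05 in limma). Ccn2, a matricellular gene induced by TGF-beta and by mechanical load, was 21.9, 21 and 20.2 TPM in Tmem216-/- and 10.8, 13.6 and 15.9 TPM in wild type. Its log2 fold change of 0.63 (SE 0.15, limma adjusted p = 0.592) was close to that of Eln. The ligand genes Tgfb2 and Tgfb1 were at 0.18 and -0.19.

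**Figure D4:**
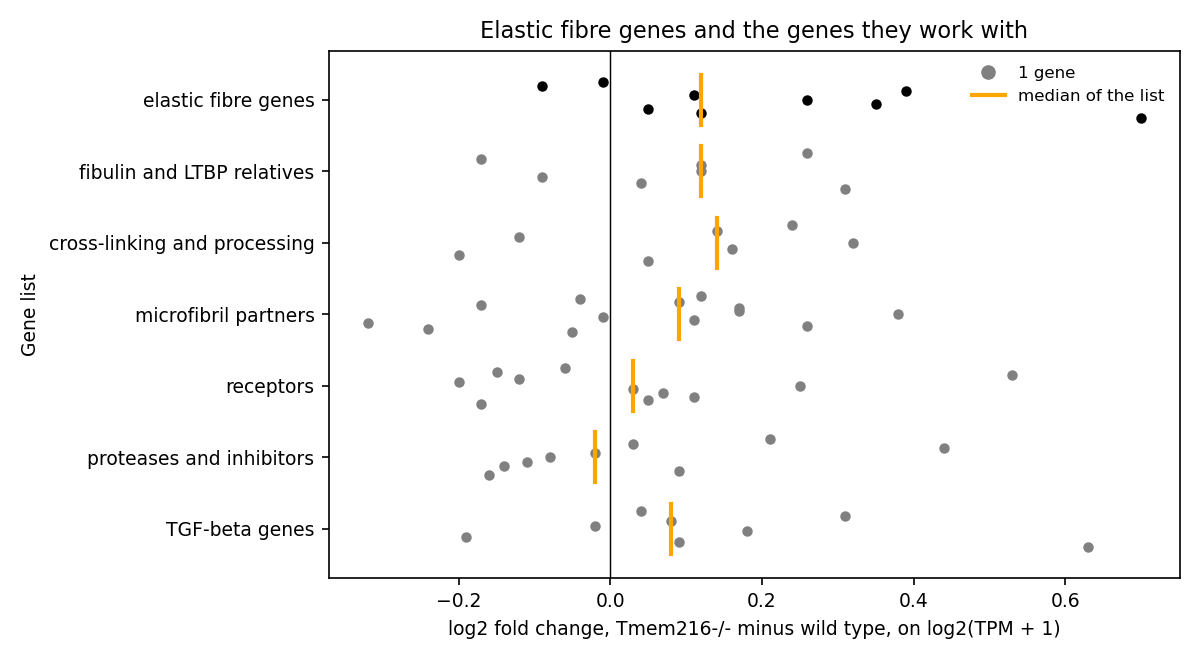
Log2 fold change (Tmem216-/- minus wild type, on log2(TPM + 1)) of each tested gene in 7 lists, with the elastic fibre genes in black and the list median as an orange bar. Medians run from -0.02 for proteases and inhibitors to 0.14 for cross-linking and processing genes, and Eln at 0.70 and Ccn2 at 0.63 are the highest values.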

How the data were processed

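Per the submitters' processing notes, the authors used CASAVA 1.8, HISAT2, StringTie and RSEM with the mm10 build. The deposited values are TPM per gene, with no read totals. The 6 columns of single samples were used, and 2 further value columns were not. Spreadsheet dates had replaced 27 gene names, which were restored from the identifier. The members and lists were chosen with earlier results of these data known.

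Values were taken as log2(TPM + 1). Genes that reached 1 TPM in any 3 of the 6 samples were tested (16411 of 56359) with limma 3.58.1 in R 4.3.3 (lmFit, eBayes with a trend, two-sided, Benjamini-Hochberg over all tested genes). SD is the sample SD and SE the moderated SE. Positions come from GENCODE M21 on the same build. Genes named are the 10 members, Tmem216, the 4 genes of each pathway list with the smallest p and the 3 most abundant of a marker list. Efemp2, Loxl1, Myh11, Cnn1, Myocd, Lmod1, Tek and Pecam1 were named after their values were seen. The same holds for Elavl3, Elavl4, Dcx, Cx3cr1, Ltbp2 and Adamtsl4. The fit was tested on simulated data. Alternatives were pseudocounts, filters, scalings, no trend, a replicate block and leaving out each sample.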

Additional observations from a re-analysis of the deposited data

How the results depend on the processing

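No elastic fibre gene was called under any of the 16 alternatives, and Eln, Fbln5, Lox, Fbn1 and Fbn2 stayed above 0 in all of them. Mfap4 kept its sign in 12, and Fbln1, Fbln2 and Mfap2 in 15. The median of the genes ran from 0.07 to 0.28 with 1 sample left out and from 0.11 to 0.16 otherwise. The number of genes called over the whole table was 17 and ran from 0 (without wild type replicate 1, with 518 at an unadjusted p under 0.05 in limma) to 27 (without Tmem216-/- replicate 1). It was 9 and 7 without Tmem216-/- replicates 2 and 3, 2 and 1 without wild type replicates 2 and 3, and 0 with no filter (1207 at an unadjusted p under 0.05). Tmem216 did not pass with no filter (log2 fold change -3.55) or with a pseudocount of 0.1 (-4.31), and ran from -3.81 to -3.25 with 1 sample left out, passing in 1 of those 6 fits. The median of the microfibril partners was 0.02 with a pseudocount of 5 and ran from -0.04 (without wild type replicate 3) to 0.11 with 1 sample left out. With 1 sample left out the median of the relatives was lowest at 0.02 (without wild type replicate 3) and highest at 0.24 (without wild type replicate 2), that of the cross-linking genes from 0.07 (without wild type replicate 3) to 0.15 and that of the TGF-beta genes from -0.0011 (without wild type replicate 1) to 0.13. The median of the receptors ran from -0.0023 (without wild type replicate 3) to 0.09 and that of the proteases and inhibitors from -0.05 to 0.05 (without Tmem216-/- replicate 3). The causes were not tested. With the replicate number as a block 25 genes were called, Eln stayed at 0.70 and the members' median at 0.12. Samples with the same number correlated at 0.016, -0.093 and 0.101 in their deviations from the group means. Deviations from a mean of 3 samples are tied to each other, so these values cannot settle whether the numbers pair the samples. Read depth is unknown, and Mfap5 had the lowest level of the 10 genes.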
